A study of Mus musculus with 2 samples.

Results

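The interleukin-6 (IL-6) and interleukin-12 (IL-12) family cytokines are 8 genes here: Il6, Osm, Lif, Il12a, Il12b, Il23a, Il27 and Ebi3. Members were the probe sets that the platform annotation assigns to 1 of these symbols alone. This gave 8 probe sets, 1 for each gene, among 35556 probe sets and 19938 genes in the deposited table, and 0 further probe sets shared a member with another gene. All 8 symbols matched RefSeq by Entrez identifier.

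The series asks how inflammatory macrophages of the colon differ from control macrophages. Mouse macrophages from the lamina propria of the colon, the tissue layer beneath the gut epithelium, were sorted as CD45+, IAb+ (MHC class II), CD11b+, F4/80+ and CD103-. The first group, called control here, came from untreated mice that drank water for 5 days. The other, called DSS, came from mice given 3% (wt/vol) dextran sulfate sodium in that water for 5 days, a polymer toxic to the gut epithelium that is used to cause colitis. Each group was measured on 1 array, so every value below is 1 reading and every difference compares 2 arrays, with no replicate error and no test between the conditions. The labels give no strain, sex, age or number of mice behind an array.

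These cytokines are built on a bundle of helices, which Il12b and Ebi3 complete as receptor-like partner chains, and they act through receptors of the gp130 type and through JAK kinases and STAT transcription factors. Il6, Osm and Lif encode single-chain cytokines, which signal through gp130 (Il6st) with a receptor partner of their own. The IL-12 group is built from 2 chains. IL-12 pairs the products of Il12a (p35) and Il12b (p40), IL-23 pairs those of Il23a (p19) and Il12b, IL-27 pairs those of Il27 (p28) and Ebi3, and IL-35 pairs those of Il12a and Ebi3. IL-6 drives the acute phase response and T cell survival. In the gut, IL-23 maintains cells that make IL-17 and IL-22, IL-12 drives interferon gamma, and oncostatin M acts on stromal cells.

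The RefSeq promoter table (build GRCm38.p6) held 6 promoters for 5 of the members, with 2 starts for Il12a and none for Il23a, Osm or Il27. It was used because members that differed together can be set beside the letters before their starts. The 250 bases before each start were searched on both strands for 5 motifs. These were NF-kB (GGG, any 2 bases, then TTTCC), AP-1 (TGANTCA), C/EBP (TTNNGNAA), the STAT element GAS (TTCNNNGAA) and IRF (GAAA, any 2 bases, then GAAA). Il6 and Lif are shown because they held all matches found in these 6 promoters, and Il23a, Osm and Il27 could not be searched. Capitals mark the matches, and no matches overlapped.

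Il6, chr5:30012864-30013113, + strand: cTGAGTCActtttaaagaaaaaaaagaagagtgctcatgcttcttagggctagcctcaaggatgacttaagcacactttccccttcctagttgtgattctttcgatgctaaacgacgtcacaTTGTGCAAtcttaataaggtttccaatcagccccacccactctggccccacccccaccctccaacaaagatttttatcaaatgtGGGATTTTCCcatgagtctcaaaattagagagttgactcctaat

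Lif, chr11:4257318-4257567, + strand: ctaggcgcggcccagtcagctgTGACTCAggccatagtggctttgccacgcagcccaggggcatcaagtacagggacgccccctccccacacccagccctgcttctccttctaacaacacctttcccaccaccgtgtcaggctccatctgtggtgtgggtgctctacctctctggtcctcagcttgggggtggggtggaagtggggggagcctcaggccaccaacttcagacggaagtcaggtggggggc

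The Il6 promoter held 3 motifs, each once. The AP-1 match TGAGTCA began 249 bases before the start, the C/EBP match TTGTGCAA 128 bases before it and the NF-kB match GGGATTTTCC 44 bases before it. Of all 32851 promoters of the table, taken at the same length, 1.41% held the NF-kB motif, 6.75% the AP-1 motif and 36.8% the C/EBP motif. The Lif promoter held 1 match, the AP-1 letters TGACTCA, which began 228 bases before the start. No GAS or IRF match was found in these 6 windows, against 7.02% and 2.98% of all promoters, and the windows of Il12a, Il12b and Ebi3 held none of the 5 motifs. A match describes letters and does not show that a factor binds there, and a window without one says nothing about the factor.

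Of the 8 cytokine genes, 7 were higher on the DSS array and 1, Ebi3, was lower. The log2 differences of Il27 (0.11) and Ebi3 (-0.25) were smaller than the SD between probe sets of 1 gene (0.28). A gene was said to pass the signal rule when its log2 signal reached the array's median on at least 1 array. The medians were 5.70 for control and 5.62 for DSS. All 8 members passed, 7 of them on both arrays and Il12a through the DSS array alone. At least 2-fold higher on the DSS array were 3 members, Il6, Il23a and Il12a, against 3.99% of the 11163 genes that passed. At least 2-fold lower were 0 members, against 3.03% of those genes. At 1.5-fold the members counted 6 higher and 0 lower, against 9.85% and 8.80% of genes. Without the signal rule, the counts at 2-fold stayed at 3 and 0 of 8, against 2.25% and 1.72% of all 19938 genes. The median difference (log2 DSS minus log2 control) was 0.93 over the members and -0.03 over the genes that passed. By sign and as deposited, those genes were thus not more often higher than lower on the DSS array. By 2-fold, 445 of them were higher and 338 lower, and after median centring their median was 0.05. Since an array reads RNA from all sorted cells together, a change in RNA per cell and a change in the share of cells that make the RNA cannot be told apart.

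**Figure D1:**
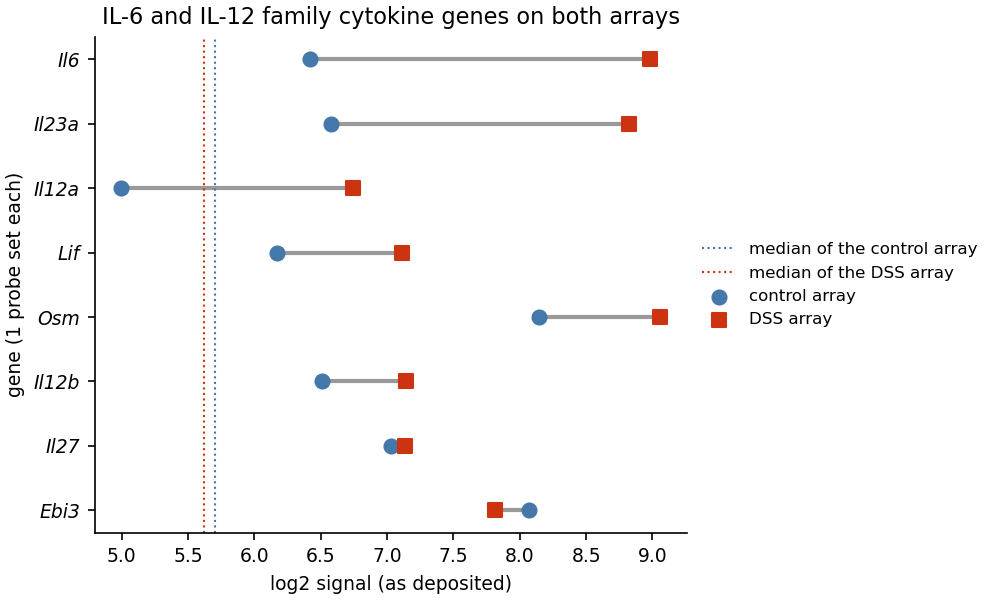
Deposited log2 signal (horizontal axis) of the 8 cytokine genes (1 probe set each) in control (circles) and in DSS (squares), ordered by their difference, with dotted lines at the array medians of 5.70 and 5.62. Il6 spans 6.42 to 8.98, Il12a starts below the control median at 5.00, and Ebi3 alone lies lower on the DSS array.

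Among the single-chain cytokines, Il6 differed most. It read 6.42 (log2 signal) in control and 8.98 in DSS, a difference of 2.56 or 5.91-fold. It ranked 78th from the highest of the 11163 genes, with 0.690% of them higher. Osm, which encodes oncostatin M, a cytokine made by activated monocytes, macrophages and neutrophils, read 8.14 in control and 9.06 in DSS. That is 1.88-fold higher, at rank 525, with 4.69% of genes higher. Lif, which encodes leukaemia inhibitory factor, a stem cell and tissue repair cytokine, read 6.17 and 7.11. It was 1.92-fold higher, at rank 498, with 4.45% of genes higher. Osm and Lif are neighbouring genes on chromosome 11, and their differences were close at 0.91 and 0.94. Both lay just under 2-fold as deposited. Lif passed 2-fold when each array was centred on its median (1.02) and after loess centring (1.03), while Osm stayed under it (0.996 and 0.853).

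The chains of IL-12 and IL-23 differed by unequal amounts, all of them with higher readings in DSS. Il23a, the chain that only IL-23 uses, read 6.58 in control and 8.82 in DSS, a difference of 2.25 or 4.74-fold, at rank 102. Il12a read 5.00 in control and 6.74 in DSS, a difference of 1.75 or 3.35-fold. Its control reading lay under the median of that array, where a signal and background look alike, so this difference and fold are not exact. Il12b, the chain that IL-12 and IL-23 share, read 6.51 and 7.14, which is 1.55-fold higher, at rank 959. The difference of Il23a exceeded that of Il12b by 1.61 (log2). As read, the shared chain differed least of the 3 on these arrays. A protein level is not measured by an array, and no level of one chain was set against that of another.

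Neither chain of IL-27 differed by 1.5-fold between the arrays. Il27 read 7.03 in control and 7.14 in DSS, a difference of 0.11 at rank 4065. Ebi3 read 8.07 and 7.82, a difference of -0.25 at rank 8087. IL-35, the pairing of Il12a with Ebi3, thus had 1 chain higher on the DSS array and 1 slightly lower. The signs of all 8 member differences held under median and loess centring.

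No replicate error exists for these readings, and 2 spreads within the arrays give a scale for them. The robust SD of the differences over the 11163 genes was 0.39. In 641 genes with several probe sets, the differences of sets for 1 gene varied with a pooled SD of 0.28, a measure of probe noise alone. The differences of Il27 and Ebi3 were smaller than both. Those of Il12b (0.64), Osm and Lif exceeded both, and those of Il6, Il23a and Il12a exceeded them by the widest margins.

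**Figure D2:**
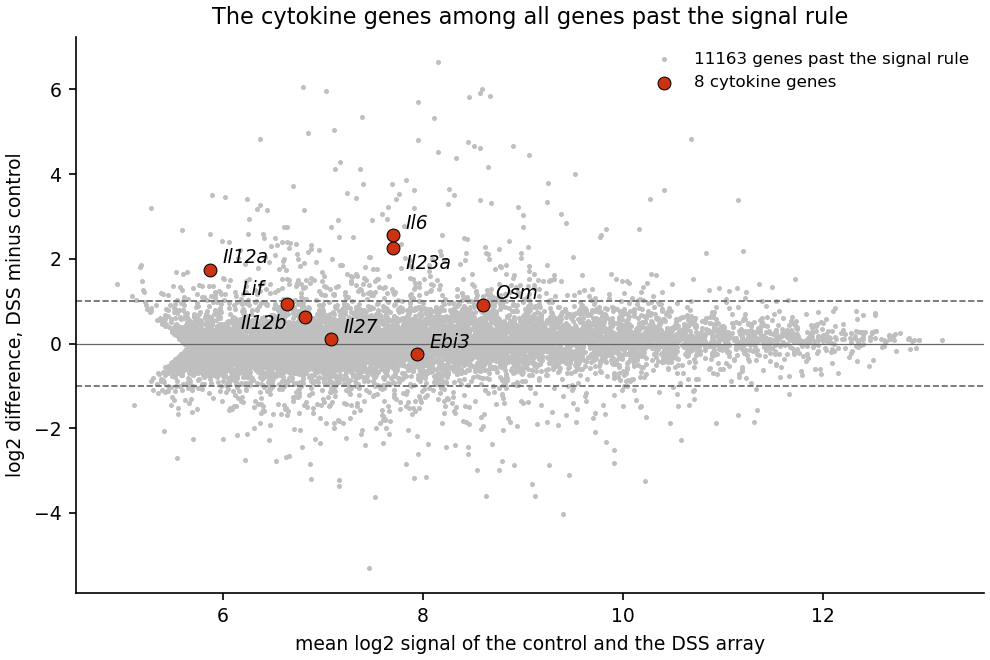
Log2 difference (DSS minus control, vertical axis) against the mean log2 signal of both arrays (horizontal axis) for the 11163 genes past the signal rule (grey) and the 8 cytokine genes (red, outlined), with dashed lines at 2-fold. Il6, Il23a and Il12a lie above the upper line, Osm and Lif just under it, and Il27 and Ebi3 near 0.

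For the members at least 2-fold apart, the nearest genes were found by distance in the plane of control and DSS log2 signal. This plane rests on 2 arrays only, and genes with the symbols of predicted genes were left out. The gene nearest to Il23a was Treml4, a myeloid receptor gene, at 6.59 in control and 8.84 in DSS (distance 0.019), followed by Rab27a, a regulator of granule release (0.135), and Il6 itself (0.225). The nearest to Il6 were Rab27a (0.198), Pram1 (0.218) and Treml4 (0.222). The nearest to Il12a were Adgrg3 (0.237), Krt5 (0.277) and Slc7a2 (0.279). A likeness over 2 arrays cannot show how these genes relate in other samples.

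Receptor chains read lower on the DSS array in 4 of the 5 genes that passed the signal rule. Of 10 chains measured, these 5 had a median difference of -0.50, against -0.03 over all genes that passed. By 2-fold, 0 were higher and 1 lower, against 3.99% and 3.03% of those genes. Il6st, the gp130 chain shared by IL-6, oncostatin M and LIF, was 1.75-fold lower in DSS, at 9.51 against 10.31 in control. Lifr, which pairs with gp130 to bind LIF, read 9.45 and 8.15, or 2.45-fold lower. Il6ra, the chain that binds IL-6, read 7.97 and 7.47. Il12rb1, the chain shared by the receptors of IL-12 and IL-23, read 6.10 and 5.62, the last value at the median of its array. Il12rb2, the second chain of the IL-12 receptor, read 5.32 and 5.72 and passed through the DSS array alone.

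The other 5 receptor chains were under the medians of both arrays. They were Osmr (4.78 and 5.01), Il23r (4.24 and 4.10), Il27ra (5.42 and 5.14), Cntfr (5.66 and 5.50) and Il31ra (4.34 and 4.19), so the specific receptor chains of oncostatin M, IL-23 and IL-27 had only dim readings in these sorted cells. With all 10 chains counted, the median difference was -0.22. Of the other ligands of the family, 5 were measured. Clcf1, a neurotrophic gp130 cytokine, read 6.09 and 6.35, and Ctf2 read 5.99 and 5.80. Il11 (4.94 and 4.94), Ctf1 (5.33 and 5.15) and Il31 (5.39 and 4.95) were under both medians. None of these 5 reached 2-fold, and Il6, Osm and Lif were the only gp130 ligands measured here that were at least 1.5-fold higher.

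Downstream of the receptors, kinase, STAT and brake genes were mostly within 2-fold, as were most of all genes that passed. All 18 measured genes for kinases, STAT factors and brakes passed the signal rule, with a median of 0.10. By 2-fold, 1 was higher and 0 lower, against 3.99% and 3.03% of all genes that passed. That gene was Jak2, the kinase used by IL-12 and IL-23 receptors among others, at 9.55 in control and 10.63 in DSS. Its difference of 1.08 became 0.96, under 2-fold, after loess centring. Stat4, the STAT that IL-12 activates, read 7.33 and 8.20, or 1.83-fold higher. Stat2 (7.99 and 8.68) and the feedback inhibitor Cish (5.90 and 6.53) were 1.62-fold and 1.55-fold higher. These 4 were the genes of the list at least 1.5-fold higher, against 9.85% of all genes that passed. Stat3, the main STAT of IL-6 and IL-23, read 9.71 and 9.85, and the kinase gene Tyk2 read 6.78 and 6.50. Socs3, the brake on gp130 that STAT3 induces, read 9.09 and 9.16 in its brighter probe set and 7.24 and 7.74 in the other, and the sign of the first turned under loess centring.

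Genes known to be induced through STAT3 divided. All 20 passed the signal rule, with a median of 0.28 against -0.03 over all genes that passed. At least 2-fold higher were 6 and lower 0, against 3.99% and 3.03% of those genes. The 6 were Lcn2 (5.58 in control, 11.59 in DSS), the acute phase gene Saa3 (5.74 and 11.59), Lrg1 (6.02 and 9.44), the vessel growth factor gene Vegfa (7.89 and 9.68), the hypoxia factor gene Hif1a (9.94 and 11.47) and the protease inhibitor gene Timp1 (5.68 and 7.06). Lcn2 is also a neutrophil marker. Lcn2 and Timp1 passed through the DSS array alone, and 4 genes were at least 2-fold higher where both arrays had to reach their medians. Ccnd1, a cell cycle gene, was 1.95-fold lower, and the other 13 lay between. By sign, 13 of the 20 were higher and 7 lower, with Il10 at -0.89 among the lower. Other inputs also induce the genes of this list, and which input acted was not tested.

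**Figure D3:**
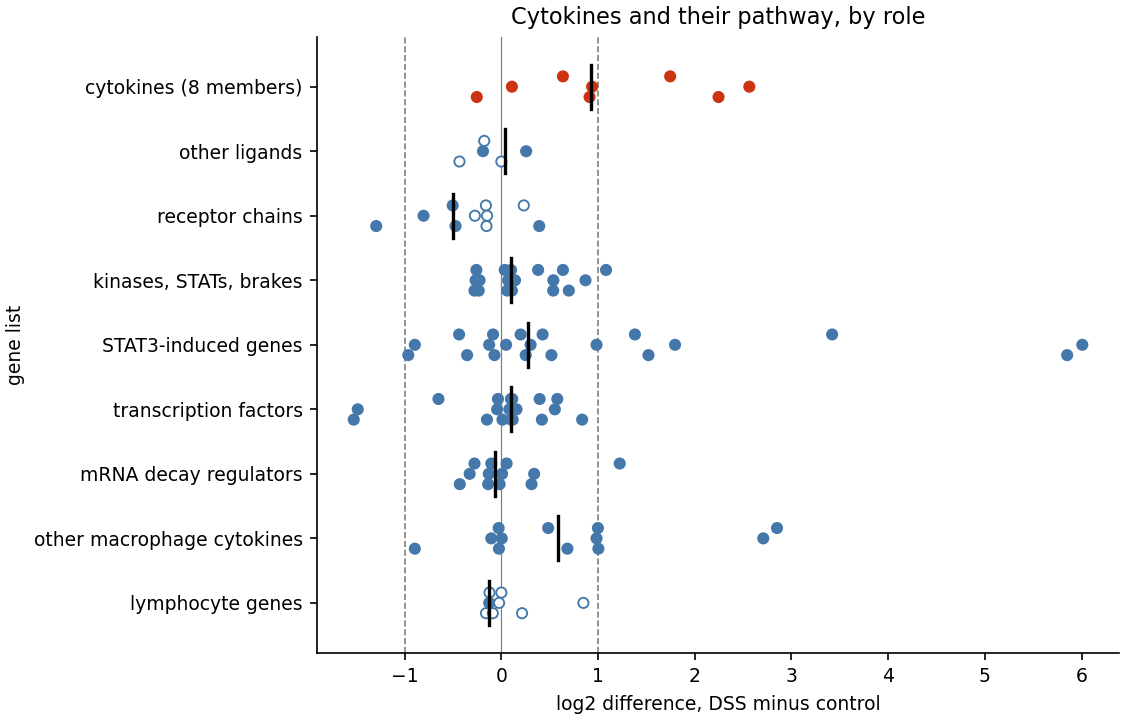
Log2 difference (DSS minus control, horizontal axis) for the cytokine genes (red) and for each list of pathway genes (blue), with filled points for genes past the signal rule, open points for genes under both array medians, black bars at the median of the filled points and dashed lines at 2-fold. The cytokines have a median of 0.93, the receptor chains one of -0.50 and the kinases, STATs and brakes one of 0.10.

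Genes that act on the cytokine genes and their messages were mostly within 2-fold, as were most of all genes that passed. All 19 measured transcriptional regulators passed the signal rule, with a median of 0.10. By 2-fold, 0 were higher and 2 lower, against 3.99% and 3.03% of all genes that passed. The lower 2 were Irf4 (7.66 in control, 6.14 in DSS) and the AP-1 subunit gene Jun (11.29 and 9.81). Irf1, an interferon-induced activator of the IL-12 chain genes, was 1.78-fold higher, and its second probe set had a difference of 0.88. Atf3, a repressor of Il6 and Il12b, read 12.11 and 11.46. The NF-kB subunit gene Rel (11.91 and 12.03) and its nuclear cofactor gene Nfkbiz (11.39 and 11.51) were bright on both arrays, and their signs turned under loess centring. Of 12 regulators of cytokine mRNA decay, 1 was at least 2-fold higher, Tia1, a translational silencer, at 6.61 and 7.83. Arid5a, which stabilises Il6 mRNA, read 7.34 and 6.91. Zc3h12a, the nuclease that cuts Il6 mRNA, read 7.11 and 7.09, and Zfp36, which speeds its decay, read 11.04 and 11.05. The signs of both turned with the centring.

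Other macrophage cytokines gave a reference for the members. All 12 passed the signal rule, with a median of 0.58. At least 2-fold higher were 3 and lower 0, against 3.99% and 3.03% of all genes that passed. Ccl5 and Cxcl9, chemokines that draw T cells, were 7.22-fold and 6.54-fold higher, and Il18 read 7.45 in control and 8.46 in DSS. Cxcl10 read 11.03 and 12.03, just under the size. After median centring 5 of the 12 passed it, and after loess centring 2 did, with Il18 at 0.984 and no longer among them. Il10, the cytokine that restrains Il6 and Il12b in gut macrophages, read 10.52 and 9.62, a difference of -0.89 that became -1.01, past 2-fold, after loess centring. Lymphocyte cytokines and factors listed for their link to IL-12 and IL-23 were dim. Of 8 measured, 1 passed the signal rule, Il17f, at 5.83 and 5.71. Ifng read 5.29 and 5.50, Il17a 5.58 and 5.42, and Gzmb 4.76 and 5.61.

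The arrays differed in markers of other cells, and these values stand beside every member difference. Of all genes that passed, 3.99% were at least 2-fold higher and 3.03% lower, the shares for every cell list below. The neutrophil list had 15 of 16 passing genes at least 2-fold higher on the DSS array, and its summed linear signal over 18 measured genes was 2215 in control and 35668 in DSS. Of the 18, 6 were at or above the array median in control and 16 in DSS, so many passed only through the array where they were high. Padi4 (4.53 in control, 4.97 in DSS) and Elane (5.06 and 4.77) did not pass. Ly6g, the defining gene of the list, read 4.04 and 10.01. The monocyte list had 10 of 11 genes higher and 1 lower, with sums of 4779 and 21355. Of the 11, 9 were at or above the array median in control and 11 in DSS. The resident intestinal macrophage list had 10 of 17 genes at least 2-fold lower, with sums of 31236 and 12751, and of its 17 genes all 17 were at or above the array median in control and 15 in DSS. Monocytes and neutrophils as well as macrophages can make oncostatin M. The sort gates included IAb+ and F4/80+, and the part of neutrophils and monocytes in the member differences was not tested.

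Dendritic cells also make IL-12 and IL-23. The dendritic cell list had 1 of 10 passing genes at least 2-fold higher and 1 lower, with sums of 2627 and 5030 over 12 genes. The higher gene was Cd24a (10.48 in control, 11.79 in DSS), which other leukocytes and epithelium also express, and the lower one was Siglech (7.66 and 6.22), a plasmacytoid marker. Without Cd24a the sums were 1199 and 1485. Of the other genes of this list, Zbtb46 (5.75 in control, 5.41 in DSS), Xcr1 (4.56 and 4.65) and Clec9a (5.20 and 6.004) were near or under the medians. Flt3 read 6.28 and 7.22, Ccr7 7.40 and 8.34, Dpp4 7.75 and 8.23 and Kmo 7.89 and 8.40. By sign, 7 of the 10 passing genes were higher and 3 lower. The sort excluded CD103+ cells, so dim readings of Xcr1 and Clec9a do not show a lack of other dendritic cells. Stromal cells, which the CD45+ gate should remove, are a source of Il6 and Lif. The list of stromal and endothelial markers had 0 of 9 passing genes higher and 1 lower, with sums of 2841 and 1934 over 12 genes. The lower gene was Pdpn (10.09 and 8.18), and without it the sums were 1749 and 1643. The stromal genes Dcn (9.66 and 9.08), Col1a1 (7.07 and 6.80), Col3a1 (6.69 and 6.22) and Col1a2 (6.77 and 6.61) were above the medians of both arrays. By sign, 3 of the 9 passing genes were higher and 6 lower. The endothelial genes Pecam1 (7.88 and 8.73) and Cdh5 (5.93 and 6.52) read higher in DSS. The epithelial list had 3 of 8 passing genes higher and sums of 918 and 2011, although the same gate should remove epithelium. The 3 were the antimicrobial lectin genes Reg3b (5.03 and 9.32) and Reg3g (4.79 and 7.20) and the fatty acid binding protein gene Fabp2 (5.96 and 7.36). Without Reg3b the sums were 886 and 1373, and Epcam, the defining surface antigen, read 4.36 and 4.70. Of the 12 epithelial genes, 5 were at or above the array median in control and 8 in DSS. Reg3b and Reg3g passed through the DSS array alone. The T and NK cell list had 1 of 4 passing genes higher and 2 lower, with sums of 786 and 480 (472 and 437 without Cd28), and Cd3d, Cd3e and Cd3g were under both medians. The B and plasma cell list had 0 of 5 passing genes higher, 1 lower and sums of 2211 and 1870. Only 2 of 8 mast cell genes passed, with sums of 261 and 2095 over the 8. Of these, Hdc read 6.18 and 10.85, and without it the sums were 189 and 255. The antigens used for sorting were present, with Ptprc (CD45) at 11.54 and 11.94, H2-Ab1 (IAb) at 11.99 and 12.13, Itgam (CD11b) at 9.59 and 10.19 and Adgre1 (F4/80) at 11.65 and 10.82. Itgae (CD103), which the sort excluded, read 4.89 and 4.91. The part of any of these lists in the member differences was not tested.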

How the data were processed

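The authors deposited log2 signals of 35556 probe sets on 2 arrays. The submitters' processing notes name RMA, which corrects background, normalises between arrays and summarises probes into probe sets. For its version, its settings and the genome build the entry is: not given in the sources used here. RMA compresses differences of dim probe sets, and no detection calls were used, so dim signals cannot be told from background. Per the labels' protocols, 100 ng of total RNA was amplified. Values were used as deposited. Array medians rest on 28939 probe sets, without those numbered below the lowest annotated one. Of several probe sets for a gene, the brightest by mean signal was used. Probe sets with several symbols named no gene. Folds are 2 to the power of the log2 difference. With 1 array per group no test was run, and the number of arrays limits the precision.

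The members and gene lists were chosen with earlier results of these data known. Of each list, the 4 passing genes with the largest differences and 1 in the other direction could be named, with all members, receptor chains, other ligands and sort antigens, and the 3 nearest genes of each member at 2-fold. Other genes (Stat3, Socs3, Rel, Nfkbiz, Zc3h12a, Zfp36, Hif1a, Timp1 and single markers) were named after their values were seen. Alternatives were median centring, loess centring (span 0.4), the mean of probe sets, a floor at the 25th percentile, other signal rules and sizes of 1.5-fold and 3-fold. Steps were tested on simulated data, with changes put only in genes brighter in control than every member. Recovery at the members' own signal was thus not tested. Python 3.11.15, numpy 2.4.6, pandas 2.3.3, statsmodels 0.14.6 and matplotlib 3.10.9 were used.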

Additional observations from a re-analysis of the deposited data

How the results depend on the processing

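Each member difference kept its sign and moved by less than the SD between probe sets (0.28) under median centring and loess centring. The mean of probe sets and the floor could not move them, since each member has 1 probe set and lies above the floor. The 3 members at least 2-fold higher became 6 at 1.5-fold, and 2 where both arrays had to reach their medians, which removes Il12a. The 1 receptor chain at least 2-fold lower became 2 at 1.5-fold and 0 at 3-fold. The median of the receptor chains was -0.22 with no signal rule. Signs turned for 2 list medians near 0, that of the other ligands (-0.18 with no signal rule) and that of the mRNA decay regulators (0.023 under median centring). Median centring shifts every difference by 0.08. Of the other values recomputed, mostly those of the other lists, 155 stayed within 1.5-fold for a count or 0.28 for a median, and 15 counts did not. Summed signals without the gene that moved a sum most were added after seeing the data. The promoter search found the same matches in the whole 300 bases of the table. No paired analysis was possible because each group has 1 array. Without replicate arrays, no difference here can be separated from the spread between arrays.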
